A study of Arabidopsis thaliana with 33 samples.

Results

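The question here was how leaf transcripts moved within the first morning of an irradiance increase. Whole rosettes of the Arabidopsis thaliana accession Col-0 were compared after 3.5 hr and after 1 hr of high light (HL), 3 arrays per time-point and 6 of the 33 arrays of the series. All plants had grown in low light (LL) at 100 μmol m-2 s-1, and HL plants received 550 μmol m-2 s-1 once the lights came on at day 25, so hours of HL and hours of light are the same number. Col-0 rosettes kept in LL on that day and harvested at the same hours, 3 arrays at 1 hr and 3 at 3.5 hr, give the change that occurred without the irradiance increase. No group carried a mutation or a transgene, and each replicate was a pool of 3 rosettes of a naturally occurring inbred line. Expression was measured for 27826 loci on Affymetrix AraGene arrays, and all of them entered the comparison.

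When light exceeds what photosynthesis can use, chloroplasts pass excess excitation to oxygen and leaves also warm, and plants answer with fast transcriptional programmes. Early among these are zinc-finger, WRKY and ERF regulators and the heat shock factors, which switch on chaperones that hold or refold unfolded proteins. Slower parts of acclimation involve light-harvesting antenna, starch, flavonoids and the protein synthesis machinery. Many leaf transcripts also follow the circadian clock through the morning, which is why the LL plants of the same hours matter.

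The deposited values are linear expression values that had lost their decimal separators, so that for each locus the digits are known but not the power of 10. Changes were therefore known only up to a factor of 10, which is 3.32 on the log2 scale. Within each group the 3 arrays of a locus were first brought as close together as their digits allow. Afterwards 2 values were moved by a power of 10 to meet the study's tables. Each HL group was placed on the LL group of its hour, using the power of 10 of the fold-change in the study's tables for the 420 loci listed at both hours and the smallest change otherwise, and LL at 3.5 hr was placed on LL at 1 hr by the smallest change. A direction is called settled here where both steps were listed and the LL change was at most 1.11 on the log2 scale, or where they were not both listed, the HL and the LL change were each within that limit and a direct placing of the HL groups on each other gave the same power. The last condition follows from the limit on the HL change and adds no check of its own. By this rule 27237 loci were settled and 589 were not. Levels are given below as log2 differences from the mean of the 3 LL 1 hr arrays of the same locus. Levels of different loci cannot be compared on this scale, and the tissue cannot be checked by the level of its marker genes. Every p-value, standard error and statement on overlap of arrays holds only under the placing used. That placing makes the spread within a group as small as the digits allow, so a larger spread could be missed.

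Between 1 and 3.5 hr of HL, 3281 loci (11.8% of those tested) changed at a Benjamini-Hochberg adjusted p below 0.05 in limma and by more than 1.4-fold. Of these, 1691 rose (6.08%) and 1590 fell (5.71%). The direction was settled for 1374 of the rises and 1362 of the falls. Of these, 82 rises and 180 falls were of loci listed at both hours. The other settled directions rest on the smallest change in at least 1 of the steps from LL to HL as well. All directions, also those of listed loci, rest on the smallest change in the step from LL at 1 hr to LL at 3.5 hr. Over the same hours in LL, 1049 loci rose (3.77%) and 1014 fell (3.64%). Among the loci that rose in HL, 618 also rose in LL, 9 fell there and 1064 were not called. Among those that fell in HL, 628 also fell in LL, 13 rose there and 949 were not called. Both contrasts had a median near 0 over all loci, at -0.0011 in HL and -0.0032 in LL on the log2 scale. The difference between the HL and the LL change, tested as an interaction, passed the same limits at 853 loci in the positive (3.07%) and 916 in the negative direction (3.29%). At 11581 loci (41.6%) the 3 HL 3.5 hr arrays did not overlap with the 3 HL 1 hr arrays. The median standard error of the HL change was 0.09, and the number of arrays limits this precision. The plot of the HL against the LL change shows both contrasts for every locus.

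**Figure D1:**
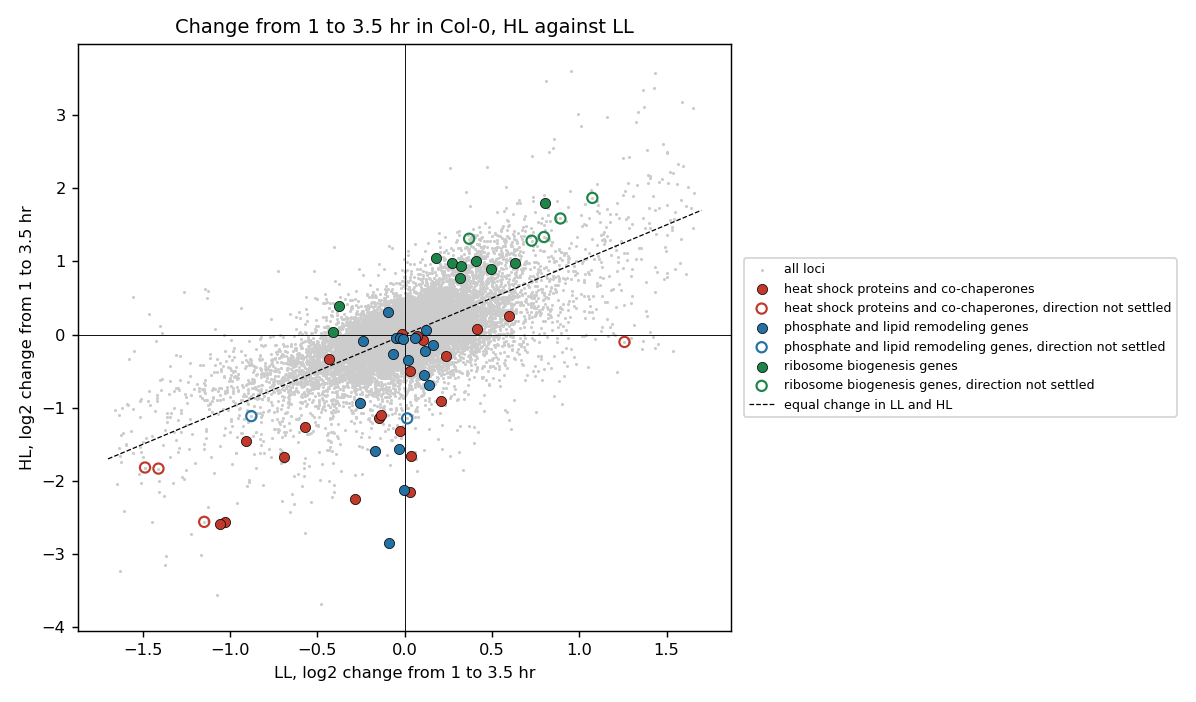
Log2 change from 1 to 3.5 hr in HL (vertical axis) against the change over the same hours in LL (horizontal axis), 1 point per locus of 27826, with heat shock, phosphate and ribosome biogenesis genes marked, open where the direction was not settled, and a dashed line at equal changes. Several heat shock and phosphate genes lie below -1 in HL near an LL change of 0, down to -2.85 for GDPD1, and the ribosome biogenesis genes lie above the line of equal change.

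Heat shock proteins and their co-chaperones made up the clearest group of falls. Of 24 members, 16 fell and 0 rose, against 5.71% and 6.08% of all loci, with a median change of -1.2 on the log2 scale in HL and -0.08 in LL. In LL 8 members fell and 2 rose, against 3.64% and 3.77% of all loci, the background for the LL counts of the lists below. For 8 of the 16 falls in HL the LL change was within 1.4-fold. Over all loci this held for 943 of the 1590 falls, the background for the same counts below. At an unadjusted p below 0.05 and no limit of size, 18 were lower in HL and 1 was higher. Of all 27826 loci, 4899 were lower and 5133 higher at that level, the background for the same counts of the lists below. The median member stood 2.48 above its LL 1 hr level after 1 hr of HL and 0.68 above it after 3.5 hr. The fall was settled for 13 of the 16, and 14 members had a negative interaction. Of all loci 3.29% had a negative and 3.07% a positive interaction, the background for the interaction counts of the lists below. These directions rest on the study's tables, which list all 16 at both hours: when the HL groups were placed on each other directly, without the tables, 9 members rose and 7 fell. The 9 that turned were HSP17.6A, AT1G07400, AT5G37670, HSP70-4, HSP90-1, CLPB4, ROF2, BAG6 and HOP3.

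The small heat shock proteins bind unfolding proteins and keep them soluble. HSP17.6A (AT5G12030), a cytosolic member, stood at 4.51, 4.18 and 4.37 on the HL 1 hr arrays and at 2.56, 2.07 and 1.7 on the HL 3.5 hr arrays, while the LL 3.5 hr arrays gave -0.22, -0.24 and -0.39. Both HL groups lay above both LL groups, without overlap between any of them. It fell by 2.25 ± 0.20 (standard error), a 4.75-fold change with an adjusted p of 1.9e-10 in limma. HSP17.4 (AT3G46230) gave 3.42, 3.18 and 3.42 at 1 hr and 2.49, 2.39 and 2.42 at 3.5 hr of HL, and fell by 0.90 ± 0.14 (adjusted p = 4e-06). Another cytosolic member, AT1G53540 (HSP17.6C), fell by 1.32 ± 0.15. The mitochondrial HSP23.6 fell by 1.14 ± 0.15 and the peroxisomal HSP15.7 (AT5G37670) by 1.66 ± 0.10. In HL at 3.5 hr, all of these members were still above the 3 LL 3.5 hr arrays. HSP21, the small heat shock protein of chloroplasts, was not called in HL (0.00 ± 0.10, adjusted p = 0.99), and its HL 1 hr arrays were at 0.01, -0.14 and -0.13.

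Among the larger chaperones, HSP90-1 (AT5G52640), the stress-inducible cytosolic HSP90, had HL 1 hr values of 2.96, 2.87 and 3.04 and HL 3.5 hr values of 0.56, 0.28 and 0.33. It fell by 2.57 ± 0.15, or 5.92-fold, and by 1.03 in LL, and the interaction was -1.54 ± 0.21 (adjusted p = 4.9e-06). ROF2, a peptidyl-prolyl isomerase that binds HSP90, had the largest fall of the list at -2.59 ± 0.17 (6.04-fold). BAG6 (AT2G46240), a calmodulin-binding co-chaperone, stood at 2.95, 2.65 and 2.97 at 1 hr and at 0.88, 0.56 and 0.69 at 3.5 hr. It fell 4.45-fold (adjusted p = 4.7e-13), with an LL change of 0.03. CLPB4, a disaggregase of mitochondria, fell by 1.68 ± 0.09, and HSA32, which is needed to keep acquired thermotolerance, by 1.1 ± 0.09. HOP3, which bridges HSP70 and HSP90, read -2.56 ± 0.16, but its direction was not settled and the reading a power of 10 away is 0.76.

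Some chaperones that stood above LL after 1 hr of HL did not pass the limits between 1 and 3.5 hr. HSP60 (AT3G23990), the mitochondrial chaperonin, stood at 1.08, 0.93 and 0.87 on the HL 1 hr arrays and at 0.96, 0.88 and 0.99 on the HL 3.5 hr arrays. The groups overlapped, and the change was -0.02 ± 0.09 (adjusted p = 0.94). CPN60BETA2, a subunit of the chloroplast chaperonin, gave 1.09, 0.90 and 1.04 and then 1.37, 1.22 and 1.23, a difference of 0.26 ± 0.08 that lay under the fold limit. AtCDC48B (AT3G53230), an AAA-ATPase that extracts proteins for degradation, fell by only 0.49 ± 0.12 (adjusted p = 0.0014), a call that was lost when HL 3.5 hr replicate 2 or HL 1 hr replicate 1 was left out. SMR5, a cyclin-dependent kinase inhibitor that responds to reactive oxygen, fell by 1.19 ± 0.13 from a mean well above LL, and its HL 3.5 hr arrays at 0.89, 0.45 and 0.41 were still above those of LL at 3.5 hr (-0.67, -0.68 and -0.81).

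Of 18 heat shock factors and coactivators, 6 fell and 0 rose, against 5.71% and 6.08% of all loci, and 3 of the falls were settled. The median was -0.27 in HL and -0.17 in LL, where 5 fell and 1 rose. Only 1 of the 6 falls in HL had an LL change within 1.4-fold, and 5 members had a negative interaction. At an unadjusted p below 0.05, 9 were lower in HL and 0 higher. Direct placing gave 3 rises and 2 falls, with HSFB2B, MBF1C and DREB2A turned. HSFA7A (AT3G51910), an inducible class A factor, showed the largest settled fall of the whole array at -3.57 ± 0.12 (11.8-fold, adjusted p = 9.6e-21). Its HL 1 hr arrays stood at 2.56, 2.59 and 2.75, and its HL 3.5 hr arrays at -0.91, -1.02 and -0.87 overlapped with LL at 3.5 hr (-1.12, -1.13 and -0.97). Placed directly, it read -0.24 and was not called. DREB2A, an activator of heat and drought genes, fell by 1.94 ± 0.12 and the repressor HSFB1 by 1.62 ± 0.09, although HSFB1 shares identical values with another locus on all arrays and the 2 cannot be told apart. MBF1C, a coactivator of the heat response, read -2.04 ± 0.11, or 1.28 by the other reading. Its LL change was -1.65, and its interaction was not called (-0.39 ± 0.15). HSFA2, the main amplifier of the response, gave 1.83, 1.90 and 1.93 at 1 hr and 2.1, 1.92 and 1.68 at 3.5 hr of HL, so the groups overlapped (0.02 ± 0.13, adjusted p = 0.95). The LL change of HSFA2 was 1.2, beyond the settled limit, so its HL level is known only under the smallest LL change. The constitutive class A1 factors HSFA1A, HSFA1B, HSFA1D and HSFA1E were not called, with changes between -0.45 and 0.14.

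Rapid stress transcription factors moved the same way. Of 20 members 11 fell, 9 of them settled, and 0 rose, against 5.71% and 6.08% of all loci. The median was -0.65 in HL and -0.05 in LL, where 1 fell and 2 rose, and 11 members had a negative interaction. At an unadjusted p below 0.05, 14 were lower and 0 higher. Placed directly, 2 rose and 9 fell, and ZAT10 and WRKY33 were the members that turned, to 1.14 and 1.26. ZAT10 (AT1G27730), a zinc-finger repressor, stood at 1.42, 1.58 and 1.96 at 1 hr and at -0.41, -0.68 and -0.49 at 3.5 hr of HL. It fell by 2.18 ± 0.28 (adjusted p = 1.7e-07), to within the range of LL at 3.5 hr (-0.09, -0.97 and -0.87). WRKY33, a regulator of camalexin synthesis, fell by 2.06 ± 0.20 from 1.08, 1.12 and 1.71 to -0.84, -0.74 and -0.69, below all 3 LL 3.5 hr arrays. ZAT12 fell by 1.27 ± 0.20, WRKY40 by 1.34 ± 0.26, WRKY53 by 0.90 ± 0.12, AZF2 by 0.98 ± 0.13 and ERF53 by 0.89 ± 0.13. The cold regulators CBF1, CBF2 and CBF3 and the dwarfing factor DDF1 were not called. For 17 of the 20 members HL 1 hr replicate 3 was the highest of its group, as for WRKY40 with 1.07, 0.89 and 2.16. The same array was highest for 11 of the 24 heat shock proteins and co-chaperones, 14 of 24 photoprotection and antioxidant genes and 0 of the 15 ribosome biogenesis genes. No share over all loci is given for such counts here. Without that array 10 members fell, and WRKY40 read -0.95 in HL and lost its interaction call. The part of that array in these falls was not tested beyond this.

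**Figure D2:**
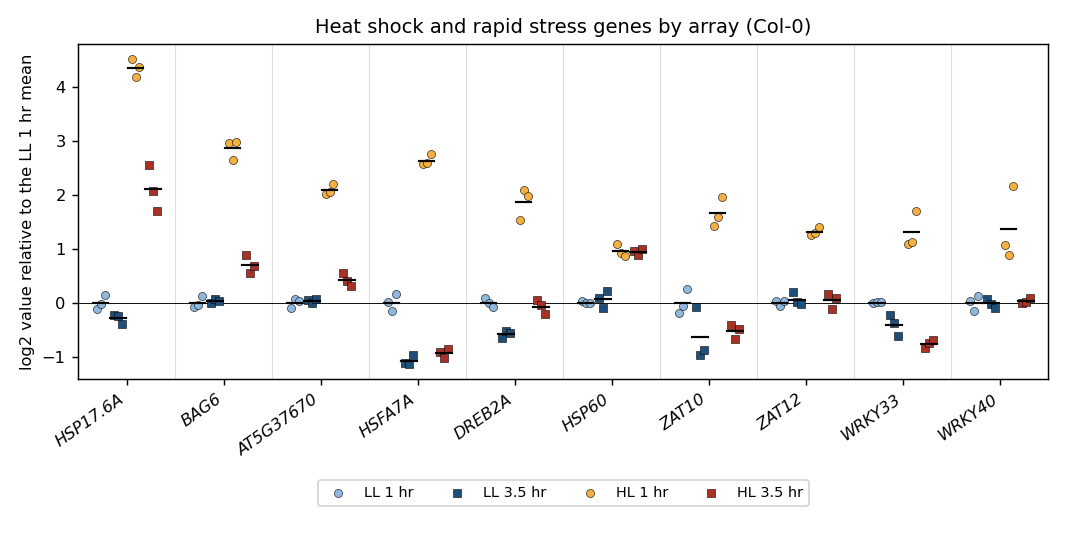
Log2 level relative to the LL 1 hr mean on each array of LL and HL at 1 and 3.5 hr, for selected heat shock and stress regulator genes, 1 point per array with a bar at the group mean. HL 1 hr arrays stand highest for HSP17.6A, BAG6, HSFA7A and ZAT10, while HSP60 gave 0.88 to 0.99 at 3.5 hr, close to its 1 hr values.

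A group of phosphate and lipid remodeling genes stood above LL after 1 hr of HL and fell by 3.5 hr, with little change in LL. Plants short of phosphate switch on SPX proteins, phosphodiesterases and enzymes that replace phospholipids by sulfolipid and galactolipid. Of 20 members, 9 fell between 1 and 3.5 hr of HL (7 settled) and 0 rose, against 5.71% and 6.08% of all loci. The median was -0.31 in HL and -0.02 in LL, where 1 member fell and 0 rose. For 8 of the 9 the LL change was within 1.4-fold, and 8 members had a negative interaction. At an unadjusted p below 0.05, 11 were lower and 0 higher. Placed directly, 1 rose and 7 fell, and GDPD1 and SPX1 were turned, to 0.47 and 1.2.

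GDPD1 (AT3G02040), a glycerophosphodiester phosphodiesterase that frees phosphate from deacylated lipids, stood at 2.43, 2.95 and 2.75 on the HL 1 hr arrays. At 3.5 hr it was at -0.21, -0.18 and -0.03 in HL and at -0.18, -0.10 and 0.01 in LL, with overlapping ranges. It fell by 2.85 ± 0.15 (7.22-fold, adjusted p = 1.5e-15), and the interaction was -2.76 ± 0.22. SPX1 (AT5G20150), a phosphate sensor that restrains the regulator PHR1, gave 1.5, 2.59 and 2.22 at 1 hr and -0.06, 0.09 and -0.08 at 3.5 hr. Its fall of 2.12 ± 0.17 (4.35-fold) likewise brought the HL arrays into the LL range. SPX2 read -1.15 ± 0.08, past the limit for a locus that the tables list at 1 hr only, and was not settled. PHR1 itself was not called (0.06, adjusted p = 0.64).

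The lipid enzymes followed their own sizes of change. SQD2, which makes sulfolipid, stood at 0.99, 1.35 and 1.31 and then at -0.26, -0.31 and -0.47, a fall of 1.56 ± 0.10. MGD2, a monogalactolipid synthase of the phosphate starvation response, fell by 1.59 ± 0.11 from 1.0, 1.33 and 1.11 to -0.38, -0.47 and -0.48. For both genes the HL 3.5 hr arrays lay below all LL 3.5 hr arrays. DGD1, a digalactolipid synthase, fell by 0.94 ± 0.10, MGD3 by 0.69 ± 0.09 and SQD1 by 0.56 ± 0.08. SQD1, which supplies the sugar donor of sulfolipid, was still at 0.70, 0.73 and 0.53 at 3.5 hr, above the LL arrays. MGD1, the housekeeping monogalactolipid synthase, was not called (-0.14, adjusted p = 0.24). The count of falls was again 9 without HL 1 hr replicate 3.

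**Figure D3:**
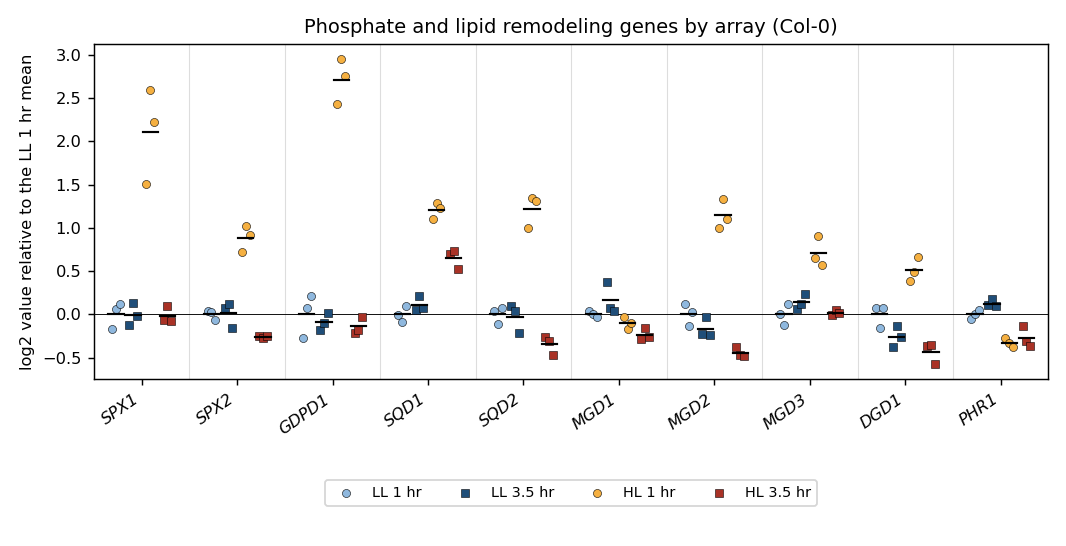
Log2 level relative to the LL 1 hr mean on each array for phosphate and lipid remodeling genes, 1 point per array and a bar for the group mean. GDPD1, SPX1, SQD2 and MGD2 stand above LL at 1 hr of HL and at or below 0.09 at 3.5 hr.

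Ribosome biogenesis genes rose together. Of 15 members, 13 rose and 0 fell, against 6.08% and 5.71% of all loci, with a median change of 1.01 in HL and 0.41 in LL. At 1 hr of HL the median member was at 0.03, and at 3.5 hr it was at 1.06 in HL and 0.41 in LL. Of the rises 8 were settled, 11 members had a positive interaction, and with direct placing 11 rose and 2 fell, with FIB2 turned to -1.53 and NUC1 to -1.45. At an unadjusted p below 0.05, 14 were higher and 0 lower. FIB2 (AT4G25630), a fibrillarin that methylates ribosomal RNA, stood at 0.14, 0.04 and -0.10 at 1 hr and at 1.75, 1.80 and 1.92 at 3.5 hr of HL. It rose by 1.79 ± 0.14 (3.47-fold, adjusted p = 6.2e-12), above the LL 3.5 hr arrays at 0.82, 0.48 and 1.12. Its relative FIB1 rose by 0.90 ± 0.09. RID2 (AT5G57280), a methyltransferase of pre-rRNA processing, gave 0.23, 0.17 and 0.14 and then 1.18, 1.3 and 1.19, with 0.16, 0.04 and 0.34 in LL at 3.5 hr, and rose by 1.04 ± 0.09. SWA1 rose by 0.98 ± 0.09, PES, the pescadillo homologue of large subunit assembly, by 0.94 ± 0.09, and NOP58-2 (AT3G05060) by 1.01 ± 0.10. Nucleolin NUC1 read 1.87 ± 0.09 and APUM24 1.31 ± 0.10, without a settled direction. PRH75, an RNA helicase (0.39), and DIM1A, a dimethylase of rRNA (0.03), did not pass the limits.

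Genes of starch turnover and sugar transport rose more often than they fell. Of 24 members 10 rose and 3 fell, against 6.08% and 5.71% of all loci, and 7 rises and 1 fall were settled. In LL 4 members rose and 5 fell. The count in HL depends on the placing, since direct placing gave 6 rises and 6 falls. GPT2 (AT1G61800), which exchanges glucose 6-phosphate and phosphate across the chloroplast envelope, stood at 1.54, 1.39 and 3.20 at 1 hr and at 4.07, 3.90 and 4.03 at 3.5 hr. It rose by 1.96 ± 0.37 (3.88-fold, adjusted p = 0.0001), while LL at 3.5 hr was at 0.47, 0.55 and 0.03. HL 1 hr replicate 3 of GPT2 was 1 of 2 values that had to be moved by a power of 10 to meet the study's tables. Without that array the interaction was 2.18, and it fell short of the threshold in each of the 11 other settings that left out 1 Col-0 array.

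The enzymes that open starch granules were among the rises. GWD1 (AT1G10760), a glucan, water dikinase, rose by 0.94 ± 0.10 from 0.14, 0.19 and 0.38 to 1.28, 1.15 and 1.1. The debranching enzyme ISA3 rose by 1.75 ± 0.15 and the disproportionating enzyme DPE1 by 0.90 ± 0.10, with LL changes of 0.94 and 0.76. On the side of synthesis, starch synthase SS1 (0.53 ± 0.08), and the ADP-glucose pyrophosphorylase subunits APL2 (0.55 ± 0.10) and APL4 (0.56 ± 0.13) rose just above the limit. SS1 and APL2 lost their calls without HL 1 hr replicate 3, at 0.47 each, and APL4 without HL 3.5 hr replicate 1, at 0.42. For the β-amylases BAM5 (3.58) and BAM1 (-1.23), the α-amylase AMY3 (-1.32) and DPE2 (2.04) the direction was not settled. SWEET11, a sucrose exporter, fell by 0.51 and by 0.98 in LL.

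**Figure D4:**
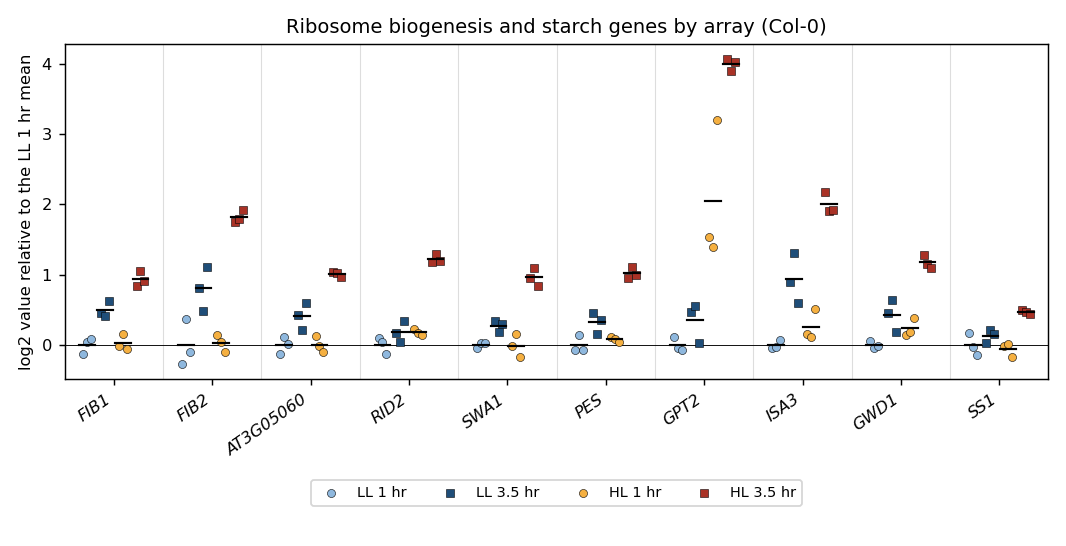
Log2 level relative to the LL 1 hr mean on each array for 6 ribosome biogenesis genes, GPT2 and 3 starch genes, 1 point per array and a bar for the group mean. The 3 HL 3.5 hr arrays lie above the other arrays for each gene, and HL 1 hr replicate 3 stands apart for GPT2 at 3.20.

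Sugar starvation genes, which are induced when carbon runs short, moved down in part. Of 22 members 9 fell and 2 rose, against 5.71% and 6.08% of all loci, and 7 of the falls but 0 of the rises were settled. In LL 5 members fell and 2 rose. DIN1 (AT4G35770), a dark-induced marker, stood at 0.22, 0.32 and 0.07 at 1 hr and at -0.64, -0.63 and -0.64 at 3.5 hr of HL. It fell by 0.84 ± 0.11 (adjusted p = 2e-07), while LL at 3.5 hr gave -0.08, -0.29 and 0.12, above all HL 3.5 hr arrays. DIN9 and DIN10 fell by 0.77 and 0.84 in HL but also by 1.03 and 0.92 in LL. DIN6, an asparagine synthetase (-1.38 ± 0.15), BXL1 (-2.73 ± 0.11), the trehalose phosphate synthase-like TPS11 (2.85 ± 0.13) and KMD4 (0.61 ± 0.10) were not settled.

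The largest settled rises were mostly of genes outside these groups. The glucomannan synthase family member CSLA01 (AT4G16590) gave 0.14, 0.03 and 0.09 at 1 hr and 3.85, 3.68 and 3.56 at 3.5 hr of HL, a rise of 3.61 ± 0.25 (12.2-fold, adjusted p = 3.8e-13). VSP1 (AT5G24780), a vegetative storage protein known as a marker of jasmonate, stood at 0.42, 0.26 and 0.33 and then at 3.93, 3.85 and 3.63, and rose by 3.47 ± 0.29 (11.1-fold). Placed directly, CSLA01 would read 0.29 and VSP1 0.15, so their size rests on the power of 10 in the study's tables. In LL at 3.5 hr, replicate 1 stood apart for both, with 1.99 against 0.56 and 0.31 for CSLA01 and with 1.96 against 0.06 and 0.41 for VSP1. The latter was the other value moved by a power of 10 to meet the tables.

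The same LL array was highest for VSP2, whose LL 3.5 hr arrays gave 1.93, -0.06 and 0.61, and for the locus AT1G73325 with 2.05, 0.34 and 0.58. In HL, VSP2 rose by 2.49 ± 0.27 and AT1G73325 by 3.01 ± 0.28, and their HL 3.5 hr arrays lay above all others. TBL26 rose by 2.28 ± 0.18, AT4G17470 by 2.02 ± 0.15 and AT5G42760 by 2.06 ± 0.09. A pair of regulators of greening and light signalling showed closer arrays. CGA1 (AT4G26150), a GATA factor that promotes chloroplast development, stood at -0.44, -0.24 and -0.43 at 1 hr, below LL, and at 1.83, 2.11 and 1.81 at 3.5 hr. It rose by 2.29 ± 0.11 (4.89-fold, adjusted p = 4.8e-17), against 0.47 in LL. BBX31, a B-box protein of UV-B and high light signalling, rose by 2.44 ± 0.13 from 0.03, 0.37 and 0.33 to 2.70, 2.84 and 2.50. All of these directions come from the power of 10 in the study's tables and from the smallest LL change. The direct placing turned VSP2, AT1G73325, TBL26, AT4G17470, AT5G42760, CGA1 and BBX31.

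Among the other loci with the largest settled falls, GASA6 (AT1G74670), a gibberellin-stimulated peptide of growth control, showed little difference from LL at 1 hr (-0.46, -0.16 and -0.33) and stood at -3.12, -2.87 and -3.10 at 3.5 hr of HL. It fell by 2.71 ± 0.14 (6.55-fold) in HL and by 0.57 in LL. GSTU28, a tau class glutathione transferase, was at 1.48, 1.63 and 1.45 and then at -0.67, -0.79 and -0.87, a fall of 2.3 ± 0.12. DIC2, a dicarboxylate carrier of mitochondria, fell by 2.29 ± 0.26 and AT1G59860, named here by its locus only, by 2.31 ± 0.10. EGY3, a protease-like protein of chloroplasts, fell by 2.43 ± 0.16 from 2.05, 2.01 and 2.44 to 0.10, -0.44 and -0.45. All 5 directions were turned by direct placing.

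Of 15 Calvin cycle genes 0 rose and 0 fell, against 6.08% and 5.71% of all loci, with a median of -0.02 and a range of -0.37 to 0.16. At an unadjusted p below 0.05 in limma and no limit of size, 1 was higher and 2 were lower, RCA (-0.28) and PRK (-0.37). Of all 27826 loci, 5133 were higher and 4899 lower at that level. In the list of 22 antenna genes and their regulators, 4 antenna genes fell, against 5.71% of all loci, and only the regulator GLK2 rose, all settled, with a median of -0.10 in HL and 0.07 in LL. LHCB1.4 (AT2G34430), a major antenna protein of photosystem II, stood at -0.28, 0.04 and 0.02 at 1 hr and at -1.46, -1.62 and -1.84 at 3.5 hr of HL, below all LL arrays. It fell by 1.57 ± 0.16 (2.96-fold, adjusted p = 2.2e-09), while LHCB1.1, LHCB1.2, LHCB1.3 and LHCB1.5 had changes between -0.19 and 0.02 and were not called. LHCB2.3 fell by 0.53 ± 0.12, a call lost without HL 3.5 hr replicate 3 or HL 1 hr replicate 2, and the rare antenna gene LHCB7 fell by 0.90 in HL and by 1.07 in LL. GLK2 (AT5G44190), an activator of antenna genes, rose by 0.78 ± 0.07 from -0.90, -0.87 and -0.89 to 0.00, -0.09 and -0.23. It also rose in LL by 0.62, and the changes did not differ by the interaction (0.15 ± 0.10, adjusted p = 0.39). GLK2 was still below the LL 3.5 hr arrays at 0.58, 0.70 and 0.59.

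Of 24 photoprotection and antioxidant genes 6 fell, 4 of them settled, and 1 rose, against 5.71% and 6.08% of all loci. In LL 8 fell and 1 rose, the medians were -0.33 in HL and -0.34 in LL, and 4 members had a positive and 1 a negative interaction. OHP1 and SEP2, small relatives of the antenna proteins in thylakoids, fell by 0.56 ± 0.08 and 0.66 ± 0.10, with LL changes of -0.47 for each, and PSY, the entry enzyme of carotenoid synthesis, fell by 0.60. PSBS (-0.02), VDE (-0.06) and ZEP (-0.46), which carry out non-photochemical quenching and the xanthophyll cycle, were not called. ELIP1, an early light-induced protein, was already at 1.5, 1.54 and 1.66 after 1 hr and read 4.80, 4.57 and 4.46 after 3.5 hr of HL. That reading makes a rise of 3.04 ± 0.14, but the LL change was 1.34 and the other reading of the HL change is -0.28, so the direction was not settled. The same holds for the β-carotene hydroxylase BCH2 (-1.12, or 2.2).

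Growth genes fell more often than they rose. Of 30 cell expansion and auxin genes 10 fell and 3 rose, against 5.71% and 6.08% of all loci, with 8 falls and 2 rises settled. The median was -0.28 in HL and 0.06 in LL, where 5 fell and 5 rose, and 10 members had a negative interaction. Direct placing gave 4 rises and 8 falls and turned XTH6 to 1.64 and PIF4 to 0.09. XTH6 (AT5G65730), a cell wall xyloglucan enzyme, stood at -0.12, -0.09 and -0.18 and then at -1.90, -1.77 and -1.78, a fall of 1.68 ± 0.09 (3.21-fold) against 0.57 in LL. The expansin EXPA8 was already low at 1 hr of HL (-1.17, -0.92 and -1.11), and fell by a further 1.25 ± 0.11, while LL at 3.5 hr gave 0.16, 0.45 and 0.34. EXPA10, another expansin, rose by 0.73 ± 0.12 with an LL change of 0.01. HAT2, an auxin-responsive homeobox gene (0.92 ± 0.09), and PIF4, a phytochrome-interacting growth regulator, were not settled. For PIF4 the readings were -3.24 ± 0.10 and 0.09.

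Of 22 abscisic acid genes 7 fell and 3 rose, against 5.71% and 6.08% of all loci, and in LL 3 fell and 4 rose. NCED3 (AT3G14440), the rate-limiting enzyme of abscisic acid synthesis under stress, stood at 1.22, 0.83 and 2.02 at 1 hr and at 0.40, 0.25 and 0.27 at 3.5 hr of HL. It fell by 1.05 ± 0.22 (adjusted p = 0.00038) and by 0.71 without HL 1 hr replicate 3, where its interaction call was lost. Of the enzymes that degrade the hormone, CYP707A2 (AT2G29090) rose by 1.2 ± 0.08, from 0.08, 0.14 and 0.00 to 1.32, 1.3 and 1.19, with an LL change of 0.20. CYP707A3 fell by 0.84 ± 0.16 and CYP707A1 was not called (-0.03). The dehydrin COR47 fell in HL by 0.50 ± 0.17 and rose in LL by 0.77, but the fall was not called in 3 of the 6 settings that left out an HL array. COR15A read 1.61 ± 0.20, not settled. HL 1 hr replicate 3 was the highest of its group for 15 of the 22 members, and without it 5 members fell and 3 rose.

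Flavonoid and anthocyanin genes showed no common direction, with 5 rises and 6 falls among 20 members, of which 2 and 2 were settled and 8 members were not. Of all loci 6.08% rose and 5.71% fell in HL, and in LL 4 members rose and 8 fell. MYB12, an activator of flavonol synthesis, fell by 1.06 ± 0.16 from 0.58, 0.79 and 1.23 to -0.08, -0.36 and -0.16. The acyltransferase gene AT1G03940 rose by 1.02 ± 0.15 and F3'H by 1.12. CHS, the entry enzyme, was under the fold limit at 0.45 with a positive interaction. The readings of MYB111 (2.52 or -0.80), MYBL2 (-2.36 or 0.96), LDOX (-1.75 or 1.57) and PAP2 (1.23 or -2.09) leave their directions unsettled.

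Of 13 photoreceptor and light signalling genes 3 rose and 4 fell, against 6.08% and 5.71% of all loci, and in LL 4 rose and 5 fell. An interaction was called for 1 member, so most of these changes were seen in LL too. UVR8, the UV-B receptor, rose by 0.63 in HL and 0.52 in LL, COP1, a ubiquitin ligase that holds down light signalling, fell by 0.57 and 0.59, and PHYA fell by 0.95 and 0.66. The blue light receptor CRY1 was not called in HL, with overlapping arrays at -0.53, -0.53 and -0.32 and at -0.15, -0.26 and -0.51 (0.15 ± 0.10), whereas it rose by 0.62 in LL. Readings without a settled direction were 1.25 for HY5 and 2.08 for HYH, bZIP factors of light signalling, and -1.42 and -1.0 for RUP1 and RUP2, which repress UVR8.

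Among 20 SR splicing factors there were 2 rises and 1 fall, against 11.8% of all loci called in either direction, and the fall, of SR45A, was not settled. RS31A rose by 0.64 ± 0.10 and SR34A by 0.55 ± 0.07, although SR34A fell under the limit at 0.48 without HL 1 hr replicate 3. SR30 (AT1G09140) was at 1.27, 1.14 and 1.31 after 1 hr and at 0.94, 0.92 and 0.91 after 3.5 hr of HL, above LL at both hours, a difference of -0.32 ± 0.08 that lay under the fold limit. SR45A read 1.44, 1.33 and 1.45 and then -0.39, -0.48 and -0.48, or -1.85 ± 0.09, with an LL change of -1.25 and another reading of 1.47.

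Clock genes cycle strongly through the morning, and several changes lay where the power of 10 is least certain. Of 21 members 3 rose and 6 fell, against 6.08% and 5.71% of all loci, and 5 members were not settled. In LL 4 members rose and 6 fell. CCA1 read -1.37 ± 0.08 in HL and -1.63 in LL, LNK2 -1.60 ± 0.07 and -1.3, RVE8 2.05 ± 0.07 and 1.56, and RVE1 2.13 ± 0.10 and 1.47. The other readings of their HL changes were 1.95, 1.72, -1.27 and -1.2. Within the settled limit, LNK1 fell by 0.93 ± 0.07, GI by 0.66 ± 0.08 and RVE4 by 0.81, with LL changes of -0.38, -0.63 and -0.84. For GI the readings a power of 10 away are 2.66 in HL and 2.69 in LL. ELF4, part of the evening complex, rose by 0.49 ± 0.08, at the limit, and the call was lost in 4 of the 6 settings that left out an HL array. LHY, the partner of CCA1, differed by 0.28 ± 0.08 in HL and rose by 0.82 in LL under the smallest change. Its readings a power of 10 away are -3.04 in HL and -2.5 in LL. Since LL changes beyond 3.16-fold would be misplaced and these are cycling genes, even the settled clock values hold only under the smallest LL change.

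The 5 largest changes that were not settled were DIP2 (-3.69 or -0.36), BAM5 (3.58 or 0.26), BBX27 (3.37 or 0.05), AT4G34950 (3.35 or 0.03) and PIF4 (-3.24 or 0.09). For all but PIF4 both readings have the same sign, so that it is the size of the change, large or near 0, that is not known. DIP2, the gene of a DBP-interacting protein, had the largest interaction of all loci at -3.21 ± 0.35, which rests on the first reading. BAM5 also had a positive interaction, and its HL 3.5 hr arrays read 4.39, 4.25 and 4.18.

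A few genes went opposite ways in HL and LL. Among the settled calls, 4 loci rose in HL and fell in LL, and 13 fell in HL and rose in LL. PORB (AT4G27440), which makes chlorophyllide in the light, stood at 0.00, -0.04 and -0.03 after 1 hr of HL and at -0.46, -0.68 and -0.83 after 3.5 hr, against 0.78, 0.97 and 0.89 in LL. It fell by 0.64 ± 0.10 in HL and rose by 0.88 in LL (interaction -1.52 ± 0.14, adjusted p = 3.5e-09). JMT, which methylates jasmonic acid, rose by 0.86 ± 0.14 in HL, to 0.91, 0.64 and 0.67, and fell by 0.52 in LL, where the call was lost without LL 3.5 hr replicate 3 (-0.43).

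Whole rosettes hold several cell types, so a change in cell composition and a change of RNA per cell cannot be told apart. Of 9 leaf cell type markers 2 fell and 1 rose, against 5.71% and 6.08% of all loci, and in LL 0 fell and 0 rose. The epidermal genes PDF1 and ATML1 fell by 0.59 ± 0.18 and 0.49 ± 0.08, and both calls were lost in at least 1 setting that left out an HL array. The guard cell channel gene KAT1 read 1.36 ± 0.09, not settled, while FAMA (-0.11), SPCH (0.06) and MYB60 (-0.23) of the same lineage were not called. Their part in the results was not tested. Of the 3 reference genes of the study, UBQ7 rose by 0.56 ± 0.08 in HL with an LL change of 0.48, and CB5E (0.42) and OTU1 (AT1G28120, -0.13) were not called. The share of called members in each list stands beside that of all loci in the plot of list shares.

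**Figure D5:**
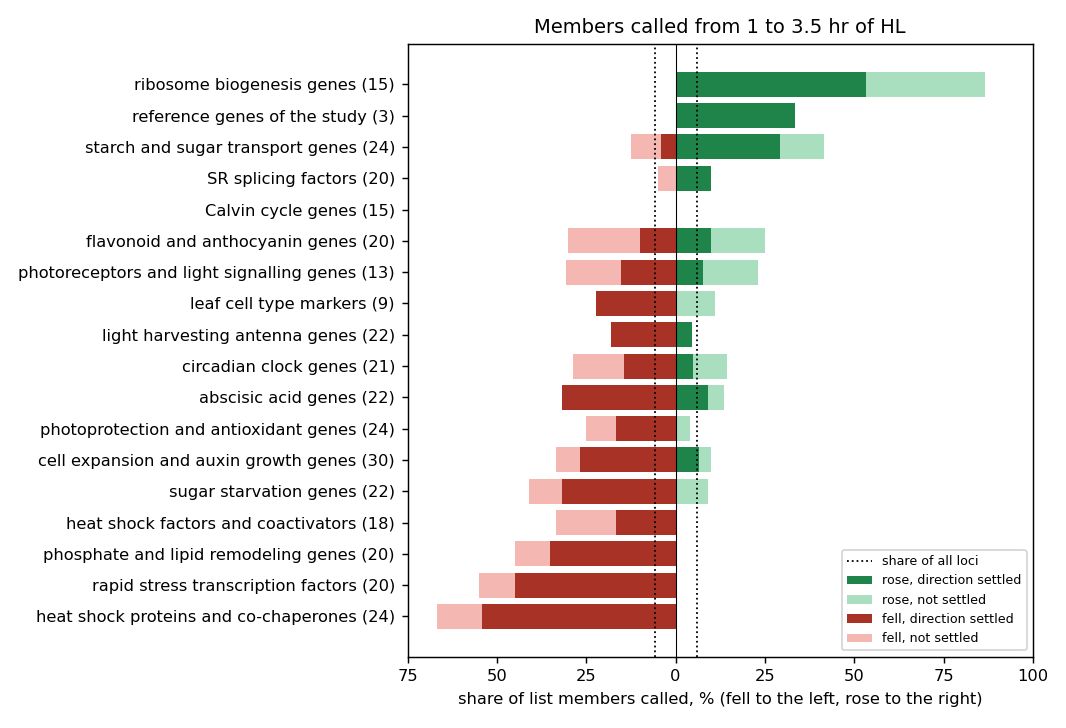
Percent of the members of each gene list that rose or fell between 1 and 3.5 hr of HL, split into settled and not settled directions, with the share of all loci (6.08% and 5.71%). Ribosome biogenesis genes have the highest share of rises (13 of 15) and heat shock proteins the highest share of falls (16 of 24).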

How the data were processed

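Whole-rosette RNA was hybridised to Affymetrix AraGene 1.1 ST arrays, 1 array per pool, in 11 groups of 3. Sample labels gave the group and the number of each replicate. The values that the authors deposited are RMA values of another kind than either raw signal or log2: linear expression values for 27826 loci, written as up to 10 digits, of which 1 of 918258 keeps a decimal point. The planned analysis allowed for this. Digits were placed on powers of 10 as described above, with the study's tables used for that power only. Apart from a power of 10, the digits gave all 1812 fold-changes of those tables to within 0.0001 (log10), 2 of them once 1 array had been moved.

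A linear model of the log2 values with 1 mean per group was fitted over all 33 arrays in R 4.3.3 with limma 3.58.1, using lmFit, contrasts.fit and eBayes, with 22 residual and 8.37 prior degrees of freedom and a median residual SD of 0.11. Benjamini-Hochberg adjustment of p covered all loci of a contrast. Calls needed an adjusted p below 0.05 and more than 1.4-fold. For single loci, an exact permutation of 3 against 3 arrays cannot go below p = 0.1. Python 3.11.15 with numpy 2.4.6 and pandas 2.3.3 served for the placing. When tested on simulated data of 27826 genes for this contrast, placed without tables, the fit gave the true direction to 32 of 40 genes at 1.5-fold, 39 of 40 at 2-fold, 32 of 40 at 3-fold and 0 of 40 at both 5-fold and 8-fold. The opposite direction was called for 8 of 40 at 3-fold, 40 of 40 at 5-fold and 1 of 40 at 8-fold, and 2 of 27626 unchanged genes were called.

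Named genes are the 10 largest settled rises and falls with separate HL arrays, the 2 largest called rises and falls of each list and members whose role orders the text, the 5 largest changes that were not settled, the 3 largest interactions each way, and genes named in the text of the study. The members and lists were chosen with earlier results of these data known. Symbols come from the TAIR10.1 annotation, in which 27241 loci were found, and 176 loci share their values with another locus on all arrays. As alternatives, the placing, centring, fold limit and choice of arrays were varied, treat, a robust fit and a replicate block were used, and replicates were left out singly. Quantile normalization and filters on dim loci need the levels of genes and were not run. Promoter sequences were not analysed here.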

Additional observations from a re-analysis of the deposited data

Results flagged for a closer look

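The change from 1 to 3.5 hr differed between HL and LL, as tested by the interaction in limma, at 1769 loci, of which 623 positive and 785 negative differences were settled in direction. The values below are HL change minus LL change on the log2 scale for the named genes with a settled direction, and they carry the same dependence on placing as the HL changes.

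Among heat shock genes the difference was -2.49 for HSFA7A, -2.18 for BAG6, -1.96 for HSP17.6A, -1.7 for AT5G37670, -1.54 for both ROF2 and HSP90-1, -1.36 for DREB2A, -1.29 for AT1G53540, -1.11 for HSP17.4, -0.99 for both HSP23.6 and CLPB4, -0.97 for HSA32, -0.76 for AtCDC48B and -0.65 for HSFB1. Among stress regulators it was -2.18 for ORA47, -1.66 for WRKY33, -1.53 for ZAT10, -1.33 for both ZAT12 and WRKY40, -1.04 for WRKY53, -0.82 for AZF2 and -0.81 for ERF53. The phosphate and lipid genes gave -2.76 for GDPD1, -2.12 for SPX1, -1.53 for SQD2, -1.42 for MGD2, -0.83 for MGD3, -0.68 for DGD1 and -0.67 for SQD1. In these 3 sets the HL arrays moved from above LL towards, into or below the LL range.

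Other negative differences were of genes near or below LL at 1 hr of HL that lay lower at 3.5 hr, with -2.14 for GASA6, -1.78 for LHCB1.4, -1.56 for EXPA8, -1.52 for PORB, -1.11 for XTH6, -0.81 for PDF1, -0.76 for DIN1 and -0.69 for LHCB2.3. EGY3 (-1.78), DIC2 (-1.75), AT1G59860 (-1.68), GSTU28 (-1.34), COR47 (-1.27), NCED3 (-1.1), CYP707A3 (-0.70), LNK1 (-0.55) and LHY (-0.54) also differed. Of these, NCED3 lost the call without HL 1 hr replicate 3 (-0.77) or LL 3.5 hr replicate 2, CYP707A3 in 9 of 12 settings that left out 1 array, and PDF1 in 7 of 12.

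Positive differences were 2.66 for both CSLA01 and VSP1, 2.02 for both TBL26 and AT1G73325, 1.82 for CGA1, 1.7 for BBX31, 1.66 for VSP2, 1.60 for GPT2, 1.44 for AT4G17470, 1.38 for JMT, 1.0 for CYP707A2 and 0.96 for AT5G42760. Ribosome biogenesis genes gave 0.99 for FIB2, 0.86 for RID2, 0.71 for SWA1, 0.62 for PES and 0.60 for AT3G05060. The remaining values were 0.81 for ISA3, 0.75 for AT1G03940, 0.72 for EXPA10, 0.52 for GWD1 and 0.50 for ELF4. The call for GPT2 was lost in 11 of the 12 settings that left out 1 array, that for ELF4 in 7, that for GWD1 in 3 and that for AT1G03940 in 2, and WRKY40 lost its call without HL 1 hr replicate 3 (-0.93). Groups of 3 arrays are too small for a test of single outlying arrays.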

How the results depend on the processing

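The counts depended most on the fold limit. With treat against 1.4-fold, 1300 loci changed in HL (722 rises and 578 falls), 590 in LL and 216 by the interaction. With no fold limit the counts were 7919 (4098 and 3821), 5840 and 2790, and with a 2-fold limit 793 (431 and 362), 382 and 292. Leaving out 1 replicate at a time gave 3120 to 3515 changed loci in HL, 1653 to 1750 rises, 1467 to 1772 falls, 1973 to 2264 in LL and 1534 to 1869 interactions. The other alternatives run kept each count within 1.5-fold, among them an unlisted 3.5 hr step set closest to a listed 1 hr step, which was chosen after seeing the data. A replicate block gave 3280 changed loci in HL (1690 and 1590), 2065 in LL and 1770 interactions and changed no call of the 129 named genes. The numbers do not pair the arrays, as deviations of same-numbered HL arrays correlated at -0.11, 0.05 and -0.04. The interaction could not be fitted with only the 6 HL arrays.

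Directions depended on the study's tables. When the HL groups were placed on each other directly, 43 of the named genes turned, and they then read -0.31 for AT1G73325, -0.83 for VSP2, -0.89 for BBX31, -1.03 for CGA1, -1.05 for TBL26, -1.26 for AT5G42760, -1.3 for AT4G17470, -1.37 for GPT2, 0.47 for GDPD1, 0.61 for GASA6, 0.73 for ROF2, 0.76 for HSP90-1 and HOP3, 0.89 for EGY3, 1.01 for AT1G59860, 1.02 for GSTU28, 1.04 for DIC2, 1.08 for HSP17.6A, 1.28 for MBF1C, 1.14 for ZAT10, 1.26 for WRKY33, -0.28 for ELIP1, -0.80 for MYB111, 0.96 for MYBL2, 1.57 for LDOX, -1.2 for RVE1, -1.27 for RVE8, -1.28 for DPE2, -0.47 for TPS11, 0.60 for BXL1, 1.2 for SPX1, 0.09 for PIF4, 1.64 for XTH6, -1.45 for NUC1, -1.53 for FIB2, 1.47 for SR45A and ORA47, -1.25 for HYH, 1.38 for DREB2A, 1.17 for BAG6, 1.66 for AT5G37670, 1.65 for CLPB4 and -1.57 for ISA3. Another 7, among them CSLA01, VSP1 and HSFA7A, were no longer called. Of listed loci with a direct change between the settled limit and 3.16-fold, 55 of 149 had another power of 10 in the tables, against 21 of 143 between 1.4-fold and that limit and 11 of 128 below 1.4-fold. Unlisted loci could be misplaced likewise, and changes beyond 3.16-fold are then missed or turned.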

Other observations

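Jasmonate genes, a list drawn up after the values were seen, did not move as one group. Of 26 members 6 rose and 3 fell in HL, against 6.08% and 5.71% of all loci, and 9 rose and 2 fell in LL. The median change was 0.17 in HL and 0.50 in LL. VSP1 and VSP2 rose as given above, and LOX2 and AOS, enzymes of jasmonate synthesis, read 1.96 and 1.59 without a settled direction. ORA47, a regulator of that synthesis, stood at 1.99, 1.35 and 2.50 on the HL 1 hr arrays and at 0.01, 0.14 and 0.15 on the HL 3.5 hr arrays, and fell by 1.85 ± 0.25. MYC2, the central activator, was not called (0.10). LL 3.5 hr replicate 1 was the highest of its group for 25 of the 26 members. The same array was highest for 7 of the 24 heat shock proteins and co-chaperones, 8 of the 15 ribosome biogenesis genes and 14 of 20 rapid stress transcription factors. Without that array 5 members had a positive and 2 a negative interaction, against 2 and 3 with it.

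Genes of tryptophan and indole glucosinolate synthesis, also listed after the values were seen, gave 7 rises and 1 fall among 10, of which only 1 rise and 1 fall were settled, and direct placing gave 5 rises and 3 falls. Of all loci 6.08% rose and 5.71% fell in HL, and in LL 6 members rose and 0 fell. CYP79B2, which commits tryptophan to indole glucosinolates, rose by 1.83 with an LL change of 0.73, and its settled direction rests on the study's tables. CYP79B3 (1.97), CYP83B1 (1.45) and the tryptophan synthase gene TSA1 (1.26) were not settled, and the regulator MYB51 fell by 0.55. LL 3.5 hr replicate 1 was the highest of its group for all 10. Among 12 organelle chaperonin genes of another such list 3 rose in HL, against 6.08% of all loci, and 9 were not called, with a median of 0.23. In LL 3 rose, against 3.77% of all loci. HSP60-3A and Cpn60alpha2 rose by 1.09 each, with LL changes of 0.47 and 0.40, whereas HSP60 was not called.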
